A study of Mus musculus with 18 samples.

Results

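The MHC class II genes were followed in bone marrow-derived macrophages (BMDMs) that received lipopolysaccharide (LPS), a bacterial cell wall component, a second LPS dose, and the platinum drug carboplatin. The members were chosen by gene symbol and number 8 of the 22852 symbols in the count tables. They comprise the chain genes H2-Aa, H2-Ab1 and H2-Eb1, the peptide exchange factor genes H2-DMa, H2-DMb1 and H2-DMb2, the invariant chain gene Cd74, and the coactivator gene Ciita. All 8 members passed the filter on low counts that left 11305 genes for testing. Ciita passed it only through the groups not primed with 100 ng/ml LPS, since it had at most 3 reads in each primed sample. Counts of members lower in primed than in other samples include Ciita on that footing.

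MHC class II molecules are pairs of an alpha and a beta chain that carry peptides from engulfed material to the cell surface, where CD4+ T cells read them. In the mouse, H2-Aa and H2-Ab1 encode the alpha and beta chains of the I-A molecule, and H2-Eb1 encodes the beta chain of I-E, whose alpha chain gene is H2-Ea. C57BL/6 mice are known for a defective H2-Ea and show no I-E at the cell surface. The invariant chain encoded by Cd74 blocks the peptide groove during transport, and H2-DM, a pair of the H2-DMa product with that of H2-DMb1 or H2-DMb2, exchanges the remaining invariant chain fragment for peptide in endosomes. CIITA, encoded by Ciita, binds no DNA itself and acts through a complex of RFX, NF-Y and CREB factors on the promoters of these genes. In macrophages it is best known as the step that interferon-gamma switches on.

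The 18 samples were BMDMs of female C57BL/6 mice, with no added allele named, in 6 groups of 3 replicates, and had been grown for 7 days in medium conditioned by L929 cells. Unstim received no LPS and no carboplatin. LPS10Control received 10 ng/ml LPS for 3 h. LPS100 was primed with 100 ng/ml LPS for 24 h, and Tol was primed in that way and then given fresh medium with 10 ng/ml LPS for 3 h. LPS100-Carbo25 and Tol-Carbo25 received 25 µM carboplatin from 1 h before the priming and through it, and were otherwise treated as LPS100 and Tol. The age of the mice and how long the control cells were kept before harvest are not given in the sources used here. The study calls the replicates biological, but nothing says that each came from a mouse of its own, so the p-values measure the spread between these samples.

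Reads assigned to genes ranged from 6869667 to 14708099 per sample, with a median of 8986463. The 8 macrophage markers checked were all above 3 reads in each group. Their summed normalized counts per sample ran from 142042 to 178750 in Unstim and LPS10Control and from 219974 to 304597 in the 12 samples primed with LPS at 100 ng/ml. These markers did not all move the same way. Between Unstim and LPS100 the mean of Lyz2 went from 81926 to 144181 and that of Cd68 from 29054.5 to 15207.5. Of 5 T cell markers, Cd3e, Cd3d and Cd3g had no read in any sample. Their list summed to 15.3 to 19.1 in Unstim, 33.2 to 48.9 in LPS10Control and 2.28 to 18.4 in the primed samples. Of 8 B cell markers, Pax5 had no read in any sample, but the list summed to 267 to 1560 in Unstim, 71.6 to 271 in LPS10Control and 0.940 to 12.7 in the primed samples. In bulk samples such as these, fewer cells of a type and less RNA per cell cannot be told apart.

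Class II promoters are known for a conserved X box and Y box, the sites of the RFX and NF-Y complexes. The windows below are printed to show which of these letters the chain genes H2-Aa and H2-Eb1 and the exchange factor genes H2-DMb1 and H2-DMb2 share. In LPS10Control the chain genes rose, and H2-DMb1 and H2-DMb2 did not pass the test. RefSeq windows on GRCm38.p6, from 250 bases before to 50 after the start, were found for 5 of the 8 members. H2-Ab1, Cd74 and Ciita had no entry. The letters searched on both strands were TGATTGG for the Y box, AACNGATG for the X box and TGACGTCA for a cyclic AMP response element, and none of these overlapped another. Each line runs 5′ to 3′ from 150 bases before the start to 50 after it, and capitals mark the matches. H2-Aa lies at chr17:34287774-34287973 on the minus strand, and H2-Eb1 at chr17:34305717-34305916, H2-DMb1 at chr17:34153041-34153240 and H2-DMb2 at chr17:34145099-34145298 lie on the plus strand.
H2-Aa: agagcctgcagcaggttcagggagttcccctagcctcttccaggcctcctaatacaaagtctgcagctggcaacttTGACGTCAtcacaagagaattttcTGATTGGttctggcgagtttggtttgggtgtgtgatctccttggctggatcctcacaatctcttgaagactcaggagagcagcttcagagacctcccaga
H2-Eb1: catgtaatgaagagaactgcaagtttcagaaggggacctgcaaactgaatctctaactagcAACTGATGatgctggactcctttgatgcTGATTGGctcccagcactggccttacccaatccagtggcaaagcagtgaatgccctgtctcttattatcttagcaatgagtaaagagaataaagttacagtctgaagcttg
H2-DMb1: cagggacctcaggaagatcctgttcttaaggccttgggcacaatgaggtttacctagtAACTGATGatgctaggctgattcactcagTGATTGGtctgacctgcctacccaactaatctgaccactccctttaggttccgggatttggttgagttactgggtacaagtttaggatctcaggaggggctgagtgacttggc
H2-DMb2: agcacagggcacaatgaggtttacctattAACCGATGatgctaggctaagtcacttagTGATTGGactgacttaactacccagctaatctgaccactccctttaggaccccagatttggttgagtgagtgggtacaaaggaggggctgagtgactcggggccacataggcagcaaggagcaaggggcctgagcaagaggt

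H2-Eb1, H2-DMb1 and H2-DMb2 each held an X box and a Y box, with 20 bases between them in H2-Eb1 and 21 in H2-DMb1 and H2-DMb2. H2-Aa held a Y box at 50 to 44 bases before its start and the cyclic AMP element at 74 to 67 bases before it. The X box letters searched were not found in its window, and an X box written with other letters would be missed. None of these strings was found in the windows at the 2 starts listed for H2-DMa. Of 32851 RefSeq windows of the full length, 7.82% held the Y box string, 2.32% the X box string, 1.79% the cyclic AMP string and 0.186% both boxes. In 5 windows the boxes were 20 or 21 bases apart in this order, and the remaining genes of that set were H2-Eb2, a further class II beta chain gene, and BC051142. A match describes letters and does not show that a factor was bound.

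On GRCm39 (GENCODE vM39), the build of the deposited counts, 6 of the members lie together on chromosome 17. H2-DMa occupies 34338515 to 34358958, H2-DMb2 34362197 to 34370529, H2-DMb1 34372046 to 34379204 and H2-Ab1 34476663 to 34488393, all on the plus strand. H2-Aa, on the minus strand at 34493404 to 34506798, shares 118 exonic bases with H2-Eb1, on the plus strand at 34504236 to 34535648. These are 2.75% of the annotated exon bases of H2-Aa. H2-Ab1 shares no exonic base with another annotated gene. Ciita lies on chromosome 16 at 10297923 to 10347694 on the plus strand and shares 5.73% of its exon bases with Dexi on the opposite strand. H2-DMa shares 11.78% with Brd2, also on the opposite strand. Noncoding genes on the opposite strand that the count tables do not list share 16.95% of the exon bases of H2-DMb1 (Gm64535) and 5.01% of those of H2-Eb1 (Gm20513). Whether reads were counted by strand is not given in the sources used here, so reads in shared bases may belong to either gene.

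In Unstim, Cd74 and H2-DMb1 were the most abundant members per length. Cd74 stood at 169 ± 51.8 normalized counts per kb of exon (SD, n = 3) and H2-DMb1 at 156 ± 8.69. H2-Ab1 had 57.6 ± 17.5, H2-DMa 44.5 ± 1.58, H2-Eb1 20.1 ± 9.5 and H2-Aa 16.3 ± 5.71 on that scale. H2-DMb2 had 6.55 ± 3.36 and Ciita 1.7 ± 0.67. Normalized counts are reads scaled to a common library size, and the lengths are the union of annotated exons, so the order between genes depends on that annotation. Cd74 overlapped in range with H2-DMb1, H2-Ab1 with H2-DMa, and H2-Eb1 with H2-Aa. In LPS100 the order differed, with H2-Ab1 at 391 ± 204 per kb, Cd74 at 174 ± 42.3 and H2-Aa at 10.5 ± 3.14.

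**Figure D1:**
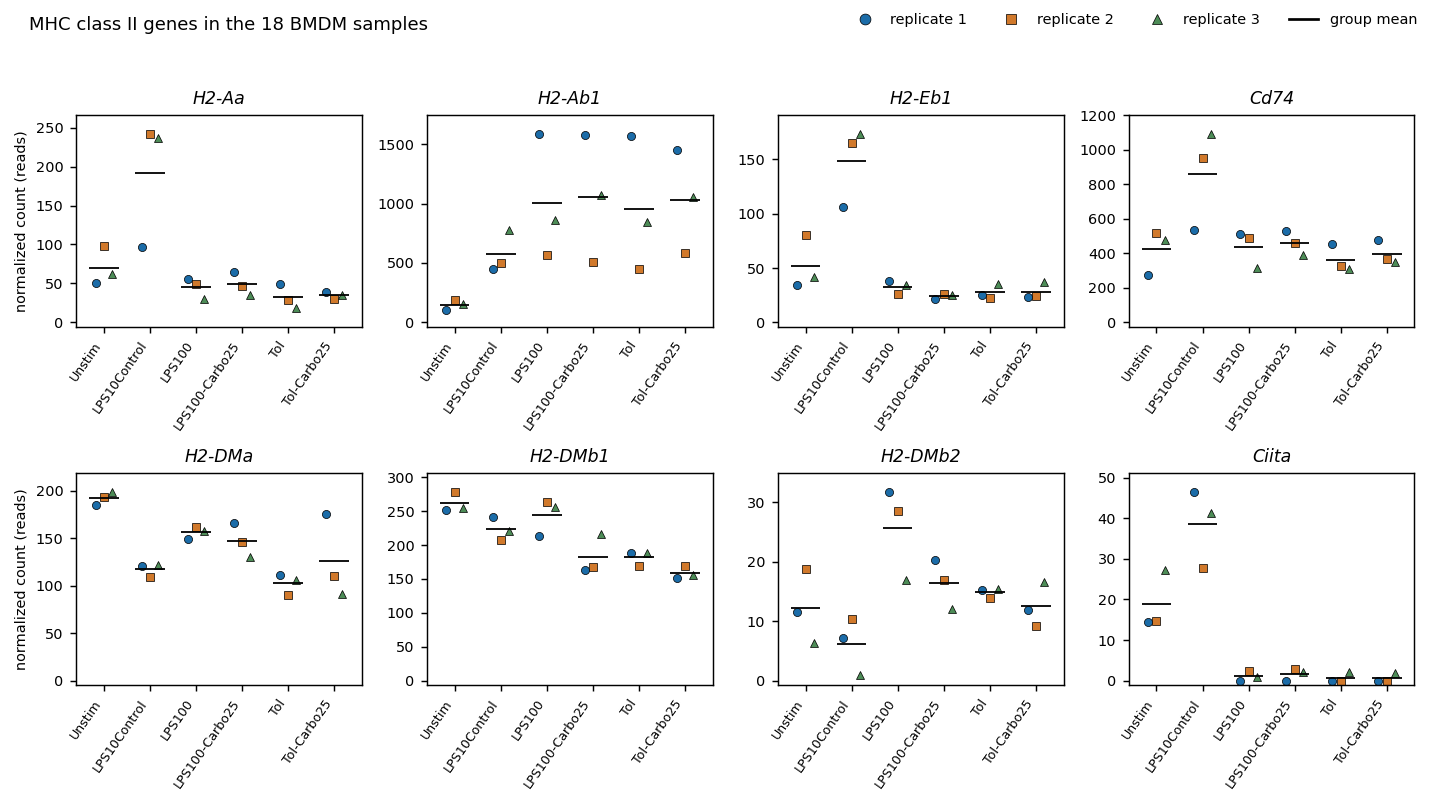
Normalized counts (reads, linear axes) of the 8 members in the 18 samples, 1 panel a gene, with a marker for each replicate number and a line for the group mean. H2-Aa, H2-Eb1, Cd74 and Ciita have their highest means in LPS10Control, H2-Ab1 is at 448 or more in all 12 primed samples, and Ciita is at 2.82 or less in them.

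A single 3 h exposure to 10 ng/ml LPS raised the chain and invariant chain genes and lowered H2-DMa. H2-Ab1 stood at 101, 191 and 152 normalized counts in Unstim and at 451, 496 and 780 in LPS10Control. All 3 treated values lay above all 3 control values, and the log2 fold change was 1.96 (SE 0.50, adjusted p = 0.00388, edgeR). H2-Eb1 went from 34.4, 80.3 and 41.8 to 106, 165 and 174, again without overlap, with a log2 fold change of 1.5 (SE 0.32, adjusted p = 0.000861). For H2-Aa the values were 50.7, 97.5 and 61.8 in Unstim and 96.6, 242 and 237 in LPS10Control. The lowest treated value lay just under the highest control value, and the log2 fold change was 1.45 (SE 0.39, adjusted p = 0.00474). Cd74 rose from 276, 520 and 478 to 532, 951 and 1092 (log2 fold change 1.02, SE 0.28, adjusted p = 0.00584), and replicate 1 was the lowest in both conditions.

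Ciita, the coactivator, had 15, 18 and 30 reads in Unstim and 39, 40 and 42 in LPS10Control. The ranges did not overlap, but at this depth the log2 fold change of 1.02 had an SE of 0.58 and did not pass the test (adjusted p = 0.151, edgeR). Of the exchange factor genes, H2-DMa fell from 185, 193 and 199 to 121, 109 and 122 normalized counts (log2 fold change -0.72, SE 0.20, adjusted p = 0.00773). H2-DMb1 stood at 252, 279 and 254 against 241, 208 and 221 (adjusted p = 0.209), and H2-DMb2 at 11.5, 18.9 and 6.36 against 7.16, 10.4 and 0.986 (adjusted p = 0.181).

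In all, 4 of 8 members rose in LPS10Control and 1 fell, where 24.3% of all genes tested rose and 26.9% fell. The median log2 fold change was 1.02 over the members and -0.09 over all genes tested. No member passed the limits used in the study, an absolute log2 fold change over 2 with an adjusted p under 0.05, by edgeR or DESeq2, and 12% of all genes did by edgeR. Of 9 markers of dendritic cells, which carry much class II, 1 was above 3 reads in Unstim and 6 in LPS10Control, with summed normalized counts of 73.6 to 134 and 176 to 344. Most of that difference was Ccl22, a chemokine, which had at most 0.956 normalized counts in Unstim and 194, 49.8 and 132 in LPS10Control. Itgax, the marker above 3 reads in Unstim, had a mean of 108 in Unstim and 103 in LPS10Control (adjusted p = 0.89, edgeR), and Xcr1 had no read in LPS10Control. The part of other cells in the result was not tested. Ighm, a B cell marker, went the other way, with normalized counts of 255, 943 and 1542 in Unstim and 69.2, 211 and 271 in LPS10Control.

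After 24 h of priming with 100 ng/ml LPS, H2-Ab1 was higher and Ciita was lower, and the other 6 members did not pass the test. H2-Ab1 stood at 1588, 569 and 860 normalized counts in LPS100, a 6.77-fold difference from Unstim (log2 fold change 2.76, SE 0.52, adjusted p = 0.000689, edgeR). All primed values lay above all control values, while the primed samples themselves spread widely. Its partner chain gene H2-Aa had 56.1, 49 and 30 normalized counts (log2 fold change -0.64, SE 0.40, adjusted p = 0.272), in the lower part of the Unstim range or under it. H2-Eb1 had 38.1, 26.2 and 34.7 (log2 fold change -0.66, SE 0.33, adjusted p = 0.164).

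Cd74 stood at 510, 486 and 315 normalized counts in LPS100 (log2 fold change 0.04, 95% interval from -0.56 to 0.65). H2-DMb2 had 31.8, 28.5 and 16.9 (log2 fold change 1.05, adjusted p = 0.157, edgeR), H2-DMa 149, 162 and 158 (adjusted p = 0.315), and H2-DMb1 214, 264 and 256 (adjusted p = 0.695). Ciita had 0, 2 and 1 reads, under a floor of 3 reads in each sample, and it was at least 5.99-fold lower than in Unstim (adjusted p = 0.00205). The 2 of 8 members called are close to the share among all genes, 25.2%. Both also passed the limits used in the study, against 7.47% of all genes. The median log2 fold change was -0.20 over the members and -0.02 over all genes tested. Summed dendritic cell markers went from 73.6 to 134 in Unstim to 26.3 to 67.7 in LPS100, and summed B cell markers from 267 to 1560 to 4.56 to 12.7, and their part in the result was not tested.

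**Figure D2:**
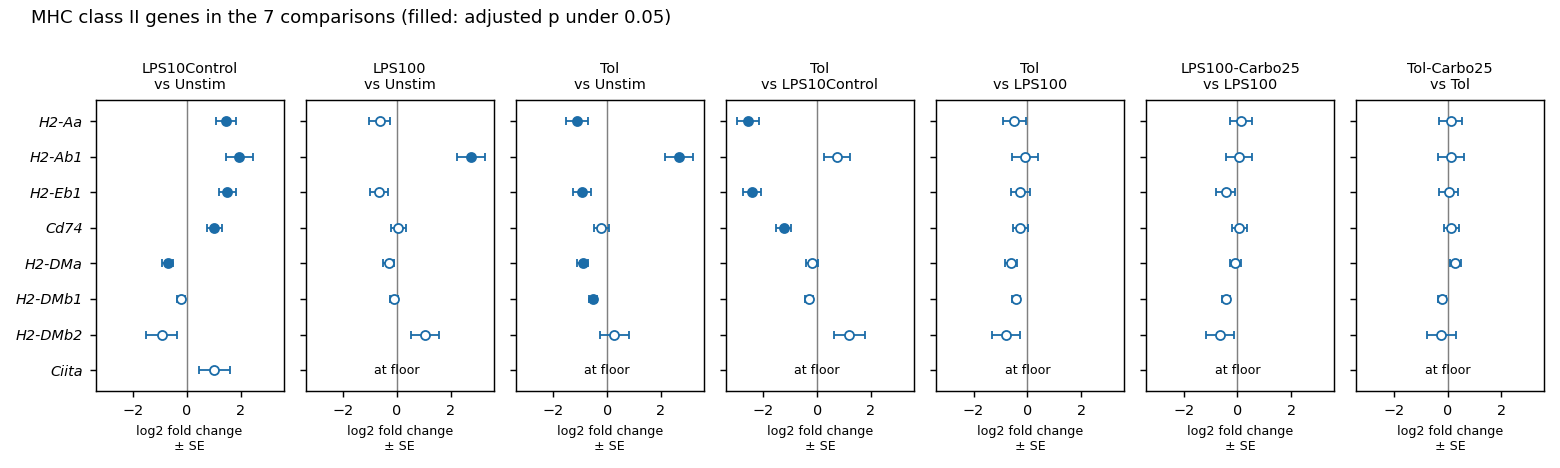
Log2 fold change (x axis, bars are ± 1 SE of the edgeR fit) of each member in the 7 comparisons, 1 panel a comparison. Filled points passed an adjusted p under 0.05, and "at floor" marks comparisons in which Ciita had 3 or fewer reads in every sample of a group. H2-Ab1 is at 2.76 in LPS100 and 2.68 in Tol against Unstim, on the other side of 0 from H2-Aa at -0.64 and -1.13, and no point is filled for Tol against LPS100 or for carboplatin.

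H2-Ab1 and H2-Aa encode the chains of 1 molecule and lie next to each other, and their reads separated after priming. There were 2, 1.96 and 2.46 H2-Ab1 reads per H2-Aa read in Unstim and 4.67, 2.05 and 3.3 in LPS10Control. LPS100 had 28.3, 11.6 and 28.7, and Tol had 31.8, 15.3 and 45.4. With carboplatin the ratios were 24.3, 10.9 and 30.5 in LPS100-Carbo25 and 37, 19.8 and 30.3 in Tol-Carbo25. The 12 primed samples thus ran from 10.9 to 45.4 and the 6 others from 1.96 to 4.67, with no overlap. The mean log2 ratio was 3.31 higher in LPS100 than in Unstim and 3.15 higher in Tol than in LPS10Control. Each of these had p = 0.1 by a two-sided exact permutation test, the smallest that 3 samples against 3 allow, and 0.311 after Benjamini-Hochberg adjustment over the 28 ratio tests made.

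The other ratios were less separated. H2-Eb1 reads per H2-Aa read ran from 0.333 to 1.89 in the primed samples and from 0.676 to 1.1 in the others, so their ranges overlapped. Cd74 reads per H2-Aa read ran from 8.15 to 16.8 in the primed samples and from 3.93 to 7.74 in the others, which did not overlap. The mean log2 ratio of Cd74 to H2-Aa was 0.69 higher in LPS100 than in Unstim (two-sided exact permutation p = 0.1, adjusted 0.311). H2-DMb1 reads per H2-DMa read ran from 0.866 to 1.88 in the primed samples and from 1.28 to 2 in the others.

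**Figure D3:**
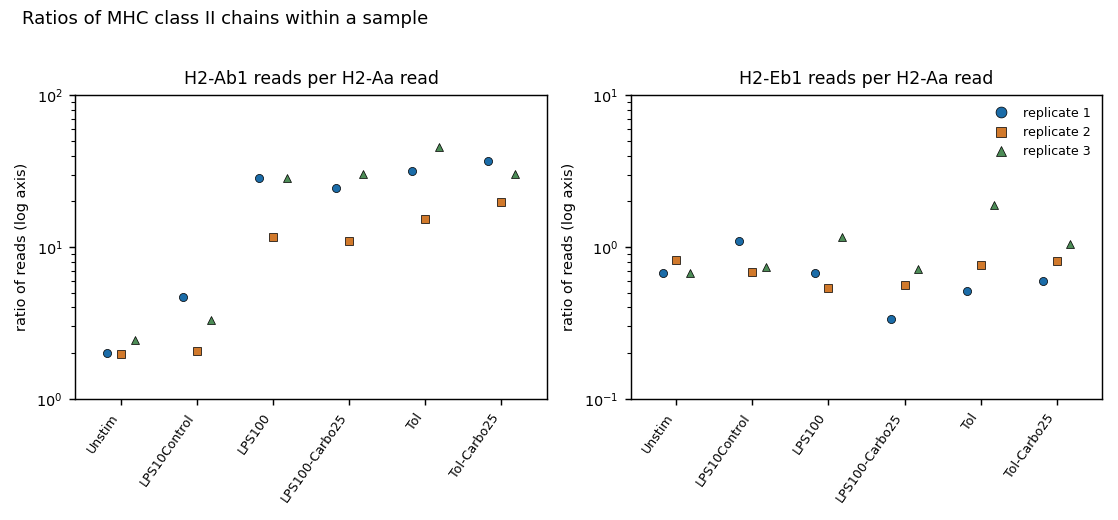
Reads of H2-Ab1 and of H2-Eb1 per read of H2-Aa in each sample, on log axes, by group and with a marker for each replicate number. For H2-Ab1 the primed groups begin at 10.9 and the other groups end at 4.67, and for H2-Eb1 the groups overlap.

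H2-Ab1 also kept 1 order of the replicate numbers in every primed group. Replicate 1 was the highest, at 1588, 1576, 1569 and 1454 normalized counts in LPS100, LPS100-Carbo25, Tol and Tol-Carbo25. Replicate 2 was the lowest, at 569, 512, 448 and 585. In Unstim and LPS10Control, by contrast, replicate 1 was the lowest. S100a8, best known from neutrophils and named after its values were seen, had replicate 1 highest and replicate 2 lowest in LPS100 (433, 80.9 and 201) and in Tol (524, 130 and 309), against 12.4, 11.5 and 6.36 in Unstim. It was the 1 of 6 neutrophil and progenitor markers above 3 reads in LPS100, and Mpo and Ly6g had no read in any group. The list summed to 21.8 to 52.6 in Unstim, 53.3 to 124 in LPS10Control and 82.0 to 537 in the primed samples, and its part in the H2-Ab1 level was not tested.

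Tolerant macrophages, primed and then given 10 ng/ml LPS, had lower levels than Unstim for most members, and higher H2-Ab1. H2-Ab1 stood at 1569, 448 and 842 normalized counts in Tol (log2 fold change 2.68 against Unstim, SE 0.51, adjusted p = 0.000552, edgeR). H2-DMa stood at 111, 89.8 and 106 and was lower (log2 fold change -0.91, SE 0.21, adjusted p = 0.0021), a call kept in all 13 alternatives tried. H2-DMb1, at 189, 169 and 188, had a log2 fold change of -0.52 (SE 0.15, adjusted p = 0.0109, and 0.0554 without Unstim replicate 2). Ciita had 0, 0 and 2 reads and was at least 5.95-fold lower (adjusted p = 0.000814). No value of H2-DMa, H2-DMb1 or Ciita in Tol reached the Unstim range.

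H2-Aa, at 49.4, 29.4 and 18.5, and H2-Eb1, at 25.3, 22.5 and 35, also passed against Unstim, with log2 fold changes of -1.13 (SE 0.41, adjusted p = 0.0369, edgeR) and -0.92 (SE 0.34, adjusted p = 0.0373). Both calls were lost when single samples were left out. Without Unstim replicate 2, the highest control for both genes, the adjusted p was 0.194 for H2-Aa and 0.327 for H2-Eb1. H2-Aa was also lost without Unstim replicate 3 (0.0574), Tol replicate 2 (0.103) or Tol replicate 3 (0.155), and H2-Eb1 without Tol replicate 1 (0.0952) or Tol replicate 2 (0.131). Cd74 stood at 456, 324 and 312 (adjusted p = 0.55) and H2-DMb2 at 15.2, 13.8 and 15.4 (adjusted p = 0.728).

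In all, 5 of 8 members were lower in Tol than in Unstim and 1 was higher, against 21% and 19% of all genes. With Unstim replicate 2 left out, 3 members were called. H2-Ab1 and Ciita passed the limits used in the study, as did 9.93% of all genes. The median log2 fold change was -0.72 over the members and -0.03 over all genes. Dendritic cell, B cell and T cell markers also summed lower in Tol, the T cell list to 4.32 to 7.21 against 15.3 to 19.1 in Unstim. The sum of the neutrophil and progenitor markers went the other way, at 132 to 537 against 21.8 to 52.6. Of the 2 tested, 1 was called higher and 1 lower. S100a8 had a mean of 10.1 in Unstim and 321 in Tol, and Kit one of 21.8 and 0.974. Dendritic cell markers summed to 24.7 to 44.3 against 73.6 to 134 in Unstim, with 1 of 2 tested called lower (Itgax, log2 fold change -1.74, adjusted p = 0.00213, edgeR). B cell markers summed to 5.06 to 10.4 against 267 to 1560, and the part of these cells in the result was not tested.

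The comparison of Tol with LPS10Control asks how macrophages that had met LPS before differed from those meeting the same 10 ng/ml for the first time. H2-Aa had a log2 fold change of -2.58 (SE 0.41, adjusted p = 0.000125, edgeR), and H2-Eb1 one of -2.43 (SE 0.34, adjusted p = 3.19e-05). Cd74 followed with -1.24 (SE 0.28, adjusted p = 0.00233), and Ciita was at least 12.2-fold lower (adjusted p = 0.000112). For each of these 4 genes, no sample of Tol reached the lowest sample of LPS10Control, and the call was kept in each alternative that gave a value. H2-Ab1 overlapped between the groups (log2 fold change 0.72, 95% interval from -0.32 to 1.77, adjusted p = 0.264). H2-DMa (adjusted p = 0.5), H2-DMb1 (adjusted p = 0.153) and H2-DMb2 (adjusted p = 0.116) did not pass.

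Thus 4 of 8 members were lower in Tol than in LPS10Control, against 18.3% of all genes, and 3 passed the limits used in the study, against 8.04%. The median log2 fold change was -0.77 over the members and 0.00 over all genes. Tol shared its samples with the comparison against Unstim. Dendritic cell markers summed to 24.7 to 44.3 in Tol and 176 to 344 in LPS10Control. Of these, the chemokine gene Ccl22 had means of 0.343 in Tol and 125 in LPS10Control, and Itgax had 32.3 and 103. The part of dendritic cells in the result was not tested. Priming, time in culture and the change of medium cannot be told apart here.

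Between Tol and LPS100, the second LPS dose went with no called member in edgeR, against 6.31% of all genes. DESeq2 also called none, and 2 members had an unadjusted p under 0.05 in edgeR. These were H2-DMa, with 149, 162 and 158 in LPS100 against 111, 89.8 and 106 in Tol (log2 fold change -0.61, SE 0.21, adjusted p = 0.0922), and H2-DMb1, with 214, 264 and 256 against 189, 169 and 188 (log2 fold change -0.43, SE 0.15, adjusted p = 0.109). For neither gene did the ranges overlap. With the replicate number as a block both were called, at adjusted p = 0.0321 and 0.0466. H2-Ab1 had a log2 fold change of -0.08 (95% interval from -1.12 to 0.96), H2-Aa of -0.48 (from -1.40 to 0.43), H2-Eb1 of -0.26 (from -1.01 to 0.49) and Cd74 of -0.27 (from -0.87 to 0.34). The median was -0.46 over the members and -0.01 over all genes. No member passed the limits used in the study, by edgeR or DESeq2, and 0.681% of all genes did by edgeR.

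The change with 10 ng/ml LPS in primed cells, Tol against LPS100, was then set against the change in unprimed cells, LPS10Control against Unstim, in 1 contrast that was chosen after the values had been seen. The primed change minus the unprimed change, on the log2 scale, was -2.04 for H2-Ab1 (SE 0.69, adjusted p = 0.0402, edgeR) and -1.94 for H2-Aa (SE 0.57, adjusted p = 0.0196). It was -1.76 for H2-Eb1 (SE 0.47, adjusted p = 0.0109) and -1.28 for Cd74 (SE 0.39, adjusted p = 0.0249). So 4 of 8 members had a lower change in primed cells, against 13.3% of all genes, and none had a higher one past the test. H2-Eb1 passed in each of the 19 alternatives tried. The number of members called fell to 1 without LPS100 replicate 1, Tol replicate 3, LPS10Control replicate 2 or LPS10Control replicate 3, and to 2 without Unstim replicate 1 or Tol replicate 2. H2-DMa (0.11, adjusted p = 0.837) and H2-DMb1 (-0.19, adjusted p = 0.566) did not pass. The primed change also holds the swap of priming medium for fresh medium and the added time. These cannot be told apart from the second dose.

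Carboplatin went with no called member in either LPS state. In LPS100-Carbo25 against LPS100, edgeR and DESeq2 called 0 of 8 members, and edgeR called 0.372% of all genes. H2-DMb1 was the 1 member with an unadjusted p under 0.05, at 163, 168 and 216 against 214, 264 and 256 (log2 fold change -0.42, SE 0.15, adjusted p = 0.455). H2-Ab1 stood at 1576, 512 and 1073 with the drug (log2 fold change 0.07, 95% interval from -0.97 to 1.1), H2-Aa at 64.8, 47 and 35.2 (0.12, from -0.78 to 1.01) and Cd74 at 528, 461 and 391 (0.07, from -0.53 to 0.68). H2-Eb1 had 21.6, 26.3 and 25.2 (-0.43, from -1.19 to 0.33), H2-DMa 166, 147 and 130 (-0.08, from -0.53 to 0.36) and H2-DMb2 20.3, 16.9 and 12.1 (-0.65, from -1.77 to 0.48). Each treated range overlapped that of LPS100.

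In Tol-Carbo25 against Tol, edgeR and DESeq2 again called 0 of 8 members, with 0 at an unadjusted p under 0.05, and edgeR called 0.425% of all genes. H2-Ab1 stood at 1454, 585 and 1057 with the drug (log2 fold change 0.12, 95% interval from -0.92 to 1.15), H2-Aa at 39.3, 29.6 and 34.9 (0.11, from -0.82 to 1.04), H2-Eb1 at 23.6, 23.9 and 36.8 (0.04, from -0.72 to 0.80) and Cd74 at 476, 368 and 349 (0.13, from -0.48 to 0.74). H2-DMa had 176, 110 and 91 (0.29, from -0.17 to 0.75), with replicate 1 above the others. H2-DMb1 had 152, 168 and 155, all under the Tol range (-0.20, from -0.53 to 0.14). H2-DMb2 had 11.8, 9.11 and 16.5 (-0.23, from -1.41 to 0.95). Each of these intervals runs from a decrease to an increase, and these samples do not exclude a change inside it.

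Ciita had 0, 3 and 2 reads in LPS100-Carbo25 and 0, 0 and 2 in Tol-Carbo25, at or under the floor as in all primed groups, so no fold change between them is given. The test of the difference between the carboplatin effects called no member, at an adjusted p under 0.25, in edgeR or DESeq2. None had an unadjusted p under 0.05, and edgeR called 0% of all genes. At the looser limits used in the study for carboplatin, an absolute log2 fold change over 2 with an adjusted p under 0.25, no member passed in LPS100-Carbo25 (0.265% of all genes) or in Tol-Carbo25 (0.389%).

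Several factors that sit on class II promoters changed with a single dose of 10 ng/ml LPS, and none passed the test after 24 h of priming alone. Of 7 RFX, NF-Y and CREB genes tested, 4 rose and 1 fell in LPS10Control, none was called in LPS100, and 2 rose and 1 fell in Tol, each against Unstim. The shares over all genes were 24.3% higher and 26.9% lower in LPS10Control, 25.2% called in either direction in LPS100, and 19% higher and 21% lower in Tol. Their median log2 fold changes were 0.44, -0.13 and 0.19. Rfx5, a subunit of the RFX complex, had means of 99.6 in Unstim, 188 in LPS10Control, 77.0 in LPS100 and 37.7 in Tol. It rose in LPS10Control (log2 fold change 0.92, SE 0.34, adjusted p = 0.0343, edgeR) and was lower in Tol than in LPS10Control (-2.29, SE 0.37, adjusted p = 0.000128). Nfyb, an NF-Y subunit, rose by 1.53 in LPS10Control (SE 0.23, adjusted p = 3.75e-05), and Rfxank, another RFX subunit, fell (-1.22, SE 0.36, adjusted p = 0.00955). Nfya was higher in Tol than in LPS100 by 0.65 (SE 0.17, adjusted p = 0.0311).

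**Figure D4:**
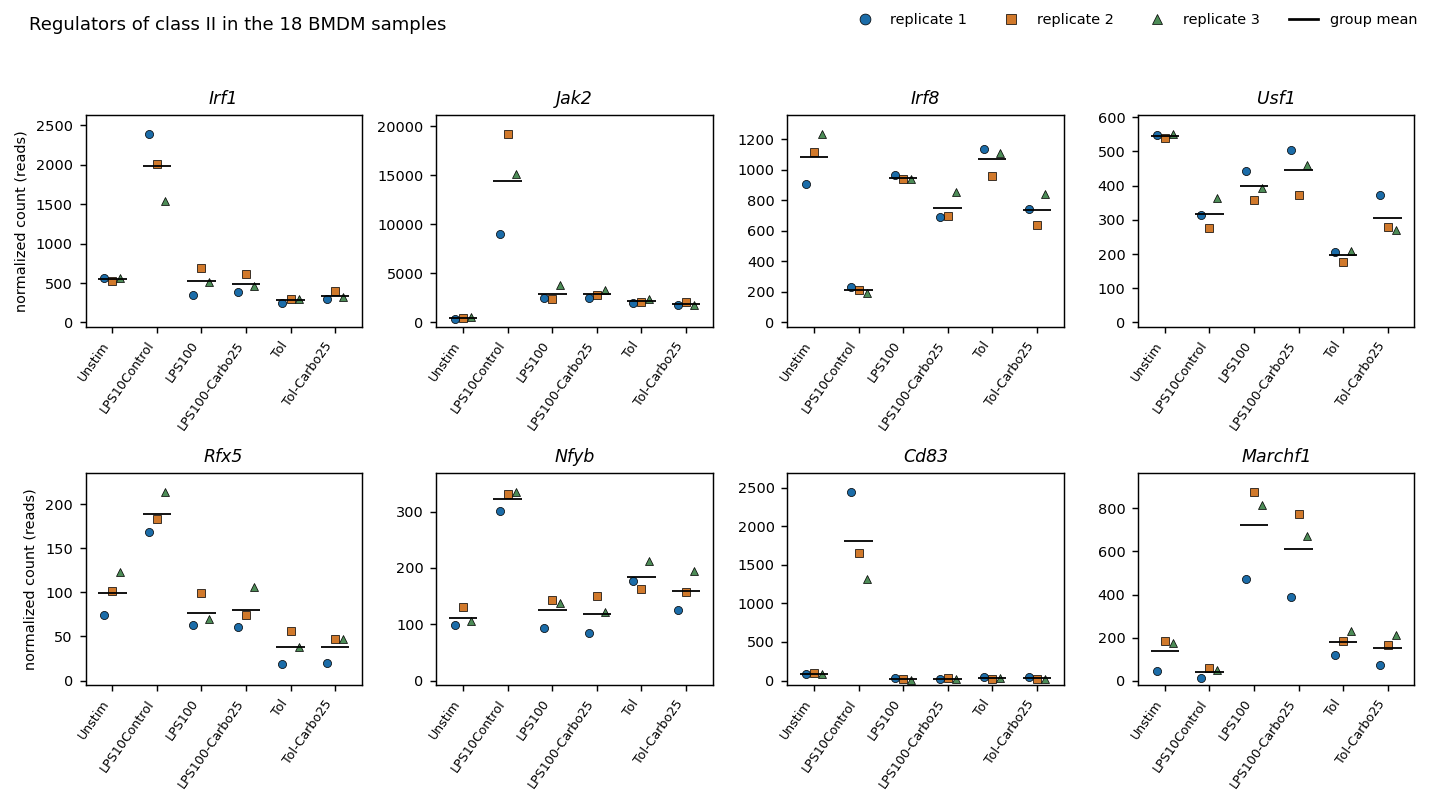
Normalized counts (reads, linear axes) of 8 genes that act on class II genes or their products in the 18 samples, with a marker for each replicate number and a line for the group mean. Irf1, Jak2, Rfx5, Nfyb and Cd83 have their highest means in LPS10Control, Irf8 has its lowest there, and Marchf1 stands at 474 to 877 in LPS100 against 13.1 to 57.4 in LPS10Control.

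Among genes from the interferon-gamma receptor to Ciita, Ifng itself had no read in any of the 18 samples. Of the 9 others, 5 rose and 2 fell in LPS10Control, 2 rose and 1 fell in LPS100, and 2 rose and 3 fell in Tol, each against Unstim. The share called in LPS100, 3 of 9, was near the 25.2% of all genes, and those in LPS10Control and Tol stand beside 24.3% and 19% of all genes higher and 26.9% and 21% lower. In Tol 5 were lower and 1 was higher than in LPS10Control (18.3% of all genes lower), and 4 were lower than in LPS100 (6.31% of all genes called in either direction). Jak2, a kinase of the receptor, had a mean of 440 normalized counts in Unstim and 14481 in LPS10Control (log2 fold change 5.04, SE 0.28, adjusted p = 4.65e-10, edgeR). Irf1, a factor that acts on the Ciita promoter that interferon-gamma uses, rose by 1.85 in LPS10Control (SE 0.23, adjusted p = 4.84e-06). In Tol, Irf1 was under LPS10Control (-2.83, SE 0.24, adjusted p = 1.64e-07) and under Unstim (-0.98, SE 0.23, adjusted p = 0.00282). Irf8, a myeloid factor, fell in LPS10Control (-2.35, SE 0.16, adjusted p = 3.88e-09) and had a log2 fold change of -0.03 in Tol (adjusted p = 0.914). Usf1, which also acts on that promoter, was lower in Tol than in Unstim (-1.47, SE 0.17, adjusted p = 3.79e-06).

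Of 9 genes for endosomal processing, 2 rose and 1 fell in LPS10Control, 3 rose and 1 fell in LPS100, and 3 rose and 3 fell in Tol, each against Unstim. Over all genes, 24.3% were higher and 26.9% lower in LPS10Control, so 3 of 9 called there is a smaller share than over all genes, and the shares were 25.2% called in LPS100 and 19% higher and 21% lower in Tol. Cathepsin genes Ctsl and Ctsz were higher in Tol than in Unstim, by 2.02 (SE 0.34, adjusted p = 0.000178, edgeR) and 1.02 (SE 0.21, adjusted p = 0.000967) on the log2 scale. Ifi30, the thiol reductase that opens disulfide bonds in endosomes, was lower (-0.75, SE 0.16, adjusted p = 0.00165). Sppl2a, a protease that cleaves the end piece of the invariant chain, rose by 0.92 in LPS10Control (SE 0.31, adjusted p = 0.0211). Ctss, the cathepsin best known for trimming the invariant chain, is named after its values were seen. Its log2 fold change was -0.10 in LPS100 (SE 0.16, adjusted p = 0.702) and -0.19 in Tol (SE 0.16, adjusted p = 0.393).

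Of 9 genes known to lower class II or to act on its turnover, 6 rose and 1 fell in LPS10Control, 3 rose and 2 fell in LPS100, and 3 rose and 2 fell in Tol, each against Unstim, where over all genes 24.3% were higher and 26.9% lower, 25.2% were called in either direction, and 19% were higher and 21% lower. Socs3, an inhibitor of cytokine signalling, had a mean of 34.9 normalized counts in Unstim and 11936 in LPS10Control (log2 fold change 8.42, SE 0.54, adjusted p = 2.44e-09, edgeR). Il10, a cytokine that lowers class II at the surface, rose by 7.20 (SE 0.51, adjusted p = 7.68e-09). Prdm1, a repressor of Ciita in B cells, rose by 3.44 (SE 0.40, adjusted p = 2.1e-06). Cd83, whose protein guards class II from breakdown, was lower in Tol than in LPS10Control (-5.73, SE 0.46, adjusted p = 8.85e-08).

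Marchf1, the ligase that marks class II for breakdown, is named here after its values were seen. It had 45.9, 184 and 176 normalized counts in Unstim and 13.1, 57.4 and 47.3 in LPS10Control (log2 fold change -1.74, SE 0.54, adjusted p = 0.0124, edgeR). In LPS100 it stood at 474, 877 and 816, above every sample of Unstim, LPS10Control and Tol (log2 fold change 2.41 against Unstim, SE 0.51, adjusted p = 0.00188). In Tol it stood at 120, 185 and 231, lower than in LPS100 (-2.01, SE 0.50, adjusted p = 0.0232). No gene of these 4 lists was called in either carboplatin comparison by edgeR at an adjusted p under 0.05. Of the class II genes outside the members, H2-Ob was tested and was not called in any comparison.

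Across the 18 samples, the highest correlations among the members were between pairs of H2-Aa, H2-Eb1, Cd74 and Ciita, and H2-Ab1 and H2-DMb2 were least like the rest. Cd74 and H2-Aa had a Pearson r of 0.91 on log2 CPM (reads scaled by library size), H2-Aa and H2-Eb1 0.85, Ciita and H2-Eb1 0.84, and Ciita and H2-Aa 0.74. Cd74 and H2-Eb1 also had 0.74, but Cd74 and Ciita had 0.53, under Ciita and H2-DMb1 at 0.58. The highest r of H2-Ab1 with any other member was 0.23, with H2-DMb2, and with H2-Aa it was -0.19 and with Ciita -0.62. That value was also the highest of H2-DMb2, whose r was -0.57 with H2-Eb1 and -0.64 with Ciita. The 18 points share their groups and library preparation, so these values describe the pattern over 6 conditions. Ciita was at or under the floor in all primed samples, so its r values rest largely on the contrast of primed with other samples.

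The genes most like the mean of H2-Aa, H2-Ab1, H2-Eb1 and Cd74 over the 18 samples were Zeb1, Adarb1, Il33, Stx6, Tfec, Arhgap23, Car2, Mob3b, Znrf1 and Gas7, with r from 0.904 down to 0.872. All 10 had their highest mean in LPS10Control. Tfec, a transcription factor of the MITF family, had 314 ± 21 normalized counts in Unstim, 3042 ± 788 in LPS10Control and 203 ± 58.4 in Tol (SD, n = 3).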

How the data were processed

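Poly(A) RNA of the 18 samples was sequenced in pairs with a stranded kit. The authors aligned reads to GRCm39 with HISAT2, and the deposited values are HTSeq counts of reads per gene symbol, not normalized. Tool versions, the gene annotation and whether counting used strand are not given in the sources used here. Summary entries that name no gene held 41.5 to 46.9% of read pairs and were left out.

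All 18 samples, grouped by their labels, were fitted together with the quasi-likelihood F test of edgeR 4.0.16 (R 4.3.3), which is a test on counts, with trimmed mean (TMM) scaling and Benjamini-Hochberg adjustment over 11305 genes kept by a filter on a minimum count of 10. DESeq2 1.42.0 was an alternative. Genes were called at an adjusted p under 0.05, or under 0.25 for the difference between carboplatin effects. SEs derive from the F statistic and intervals use 12 residual degrees of freedom. A fold against a group with at most 3 reads in every sample is a lower bound. Limits on precision from depth cover counting error only. The fit was tested on simulated data. No 2 samples were identical.

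Replicate numbers are in the labels without a stated meaning. As a check of pairing, samples that share a number deviated together (r of 0.117 to 0.574 over the 21 such pairs in compared groups, after group means were subtracted), so a fit with the number as a block was an alternative. The members, gene lists and tests were chosen with earlier results of these data known. Named were the 8 members and up to 4 genes with the smallest adjusted p in each pathway list. The 10 genes with the highest correlation to the mean of the chain genes and Cd74 were also named. The contrast of primed with unprimed change was added after the values were seen. Promoters came from RefSeq on GRCm38.p6. Gene positions came from GENCODE on GRCm39, where 20563 of 22852 symbols matched.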

Additional observations from a re-analysis of the deposited data

Results flagged for a closer look

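For 4 members the change with 10 ng/ml LPS differed between primed and unprimed cells by a test of the difference itself, chosen after the values were seen. The primed change (Tol against LPS100) minus the unprimed change (LPS10Control against Unstim) was -2.04 for H2-Ab1, -1.94 for H2-Aa, -1.76 for H2-Eb1 and -1.28 for Cd74 on the log2 scale, at adjusted p from 0.0109 to 0.0402 in edgeR. H2-Ab1 stood high before the second dose (1588, 569 and 860 normalized counts in LPS100), and H2-Aa stood low (56.1, 49 and 30). Leaving out single samples ended the call of H2-Ab1 in 8 of 12 cases, with adjusted p up to 0.121, that of Cd74 in 7, with adjusted p up to 0.0768, and that of H2-Aa in 4, with adjusted p up to 0.0546. The call of H2-Eb1 was kept in all 12. The primed change also holds the swap of priming medium for fresh medium and the added time, which cannot be told apart from the second dose.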

How the results depend on the processing

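Alternatives were other size factors, no filter or at least 10 counts in every sample, DESeq2, the compared samples alone, the replicate block, and each sample left out. Of the values of single members, 973 kept their side of the threshold, 33 lost their call, 5 gained one and no called value changed sign. Of the 973, 52 changed sign, all of them values called in neither fit, such as Cd74 in LPS100 against Unstim and H2-Ab1 in Tol against LPS100. When each compared sample had to hold 10 or more reads of a gene, 6 members were tested in LPS100 against Unstim and in Tol against Unstim, without Ciita and H2-DMb2. LPS100 against Unstim then had 1 member called and 1 past the study limits, and Tol against Unstim had 1 past the limits. With the compared samples alone, Tol against Unstim had 3 called and LPS10Control against Unstim had 1 past the limits. With library size alone, Tol against LPS100 had 1 called (H2-DMa, adjusted p = 0.0399 in edgeR) and the primed minus unprimed change had 2. That scaling moved the median log2 fold change of all genes to -0.26 in LPS100, -0.43 in LPS10Control and -0.37 in Tol, each against Unstim. It also called H2-DMa in LPS100 (-0.54, adjusted p = 0.0438) and H2-DMb1 in LPS10Control (-0.57, adjusted p = 0.00512). With the replicate block, Tol against LPS100 had 2 called members (H2-DMa and H2-DMb1), and the block changed no other call of a member. Leaving out 1 sample gave 3 to 6 called in Tol against Unstim (3 without Unstim replicate 2), 0 to 1 past the limits in LPS10Control against Unstim (1 without Unstim replicate 2, LPS10Control replicate 1 or LPS10Control replicate 2), and 1 to 4 called for the primed minus unprimed change. The causes were not tested. H2-Ab1 in LPS100 against Unstim was called in all alternatives, with log2 fold changes of 2.27 to 3.05. Depth limits Ciita and H2-DMb2 most.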

Other observations

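The genes with the pattern most like that of H2-Ab1 alone, named after the values were seen, were Dnmt3l (Pearson r 0.967 over the 18 samples on log2 CPM), Tm4sf1 (0.950), S100a8 (0.949), Inhba (0.941) and Clmp (0.938). For Ciita they were Rin3 (0.961), Fbln5 (0.957), Axl (0.954), Ptpn22 (0.946) and Cpe (0.936). Ciita was at or under the floor in all primed samples, so these values rest largely on the contrast of primed with other samples. These are descriptions over samples that share 6 conditions.

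Il33, a cytokine among the genes most like the mean of the chain genes and Cd74, had no read in Unstim. In LPS10Control its mean was 186 ± 95.6 normalized counts (SD, n = 3). Zeb1, a transcriptional repressor, had 28.9 ± 5.89 in Unstim and 643 ± 245 in LPS10Control.

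Ighm had 9.19 normalized counts or fewer in each of the 12 primed samples, against 255 to 1542 in Unstim. H2-Eb2 had 1 read in 1 sample, and H2-Oa had 0 to 15 reads per sample.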
